A study of Mus musculus with 9 samples.

Results

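Dorsal root ganglia (DRG) of Isl1Cre/+ embryos, in which 1 copy of Isl1 carries the Cre recombinase, were compared with DRG of WT embryos. The comparison holds 6 of the 9 RNAseq libraries of the study, 3 for each of these genotypes, chosen by their labels, and those 13200 of 55247 annotated genes whose count reached 100 in any of the 9 libraries. All embryos were at E18.5. By their labels these embryos were WT or Isl1Cre/+, and the labels do not say whether either carried Meis2 alleles with LoxP sites. The other 3 libraries came from Isl1Cre/+::Meis2LoxP/LoxP embryos (mutant), in which the same Cre allele is combined with Meis2 alleles whose exon 8 is flanked by LoxP sites. The comparison of Isl1Cre/+ with WT asks what the Cre allele changes on its own. The allele is read from the Isl1 promoter, so Cre is made in all cells that use Isl1, and it takes the place of a working Isl1 copy. The sources used here do not give the litter, the axial level or the number of embryos behind a library, so p-values measure the spread between these libraries, which may in part be technical. A gene is called higher or lower here when the edgeR quasi-likelihood test gave a fold change of at least 1.2 with an unadjusted p under 0.05.

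Isl1 encodes a LIM homeodomain transcription factor that acts with Ldb cofactors. It is made in postmitotic sensory neurons, and also in spinal motor neurons and sympathetic neurons. In sensory neurons it is known to shut off the early neurogenesis program and to open programs of neuronal subtypes, those of nociceptors among them. DRG lie between the spinal cord, the vertebral cartilage and the muscles of the back, with the sympathetic chain close by, and are supplied with blood, so dissected ganglia can hold RNA of any of these tissues.

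The largest groups of genes that differed encode haemoglobin chains, made by red blood cells, and proteins of the contractile apparatus of skeletal muscle, and their promoters are shown here because they are textbook cases of regulatory sequences of these 2 cell types. The sequences come from RefSeq on GRCm38.p6, the same assembly as mm10, and give the 100 bases before the annotated start, 5′ to 3′ on the strand of the gene. In the globin promoters, capitals mark the CCAAT box, the motif CACCC bound by Krüppel-like factors, and the TATA box, searched as TATAA, each on both strands. In Acta1 and Actc1, the skeletal and cardiac alpha-actins, capitals mark the CArG box, the binding motif of serum response factor, and in Mylpf and Des, a fast myosin light chain and desmin, they mark the E-box CAGCTG, a motif bound by MyoD-type factors.
Hba-a1: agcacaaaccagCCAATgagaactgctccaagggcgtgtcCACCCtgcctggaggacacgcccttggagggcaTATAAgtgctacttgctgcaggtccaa
Hba-a2: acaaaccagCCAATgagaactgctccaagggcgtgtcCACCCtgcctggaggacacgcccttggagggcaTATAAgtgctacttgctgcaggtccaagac
Hbb-bs: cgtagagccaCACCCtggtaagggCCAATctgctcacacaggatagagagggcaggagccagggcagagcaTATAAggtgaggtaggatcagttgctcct
Hbb-bt: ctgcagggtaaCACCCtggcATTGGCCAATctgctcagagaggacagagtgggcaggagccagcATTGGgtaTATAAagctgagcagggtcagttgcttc
Acta1: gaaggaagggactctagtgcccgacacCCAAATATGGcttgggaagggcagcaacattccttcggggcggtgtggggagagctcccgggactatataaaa
Actc1: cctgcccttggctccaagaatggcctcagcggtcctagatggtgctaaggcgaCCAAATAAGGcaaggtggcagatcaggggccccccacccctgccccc
Mylpf: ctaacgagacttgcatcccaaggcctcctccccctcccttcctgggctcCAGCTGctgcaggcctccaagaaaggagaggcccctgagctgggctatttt
Des: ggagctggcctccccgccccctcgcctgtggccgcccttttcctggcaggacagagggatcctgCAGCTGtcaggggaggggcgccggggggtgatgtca

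The stretches of Hba-a1 (chr11:32283572-32283671, plus strand) and Hba-a2 (chr11:32296392-32296491, plus strand) share a run of 97 identical bases. Those of Hbb-bs (chr7:103827929-103828028, minus strand) and Hbb-bt (chr7:103813924-103814023, minus strand) both hold the 3 motifs, the second with 2 further matches of CCAAT on the other strand, and share no identical run longer than 14 bases. The stretches of Acta1 (chr8:123894776-123894875, minus strand), Actc1 (chr2:114052876-114052975, minus strand), Mylpf (chr7:127211508-127211607, plus strand) and Des (chr1:75360192-75360291, plus strand) each hold the motif marked once. Among 32851 promoter stretches of this length, 18.9% hold CCAAT, 27.2% CACCC, 10.2% TATAA, 5.81% CAGCTG and 0.615% a CArG box. Of the 32 muscle genes called lower in Isl1Cre/+, 25 had a promoter in the table, and 3 of these held a CArG box and 4 the E-box. A motif is a description of the sequence and not evidence that a factor bound there.

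The 6 libraries held between 27819209 and 29103444 counts. Their DRG identity was clear in every library, with Scn10a, the sodium channel of nociceptors, between 1034 and 1179 cpm (counts scaled to the size of the library, normalised by TMM). WT replicate 1 stood apart from the other libraries. Mitochondrial genes took 8.58% of its counts against 3.04% to 3.99% in the other 5, and its median rank correlation with the other 8 libraries was 0.981 against 0.991 to 0.995 for the other 5. Y-linked genes gave 4701 and 5763 counts in WT replicates 1 and 2 and 0 or 1 count in WT replicate 3 and in all 3 Isl1Cre/+ libraries, so the sex of the embryos differed between the groups and cannot be fully told apart from the genotype.

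Isl1 itself was lower in Isl1Cre/+ ganglia (ENSMUSG00000042258 in the deposited table, chr13:116298281-116309689 on mm10, minus strand). WT libraries held 222, 276 and 286 cpm of Isl1 and Isl1Cre/+ libraries held 165, 192 and 205 cpm, and the groups did not overlap. The level in Isl1Cre/+ was 0.716 times that of WT, with a 95% interval of 0.583 to 0.878 (log2 fold change -0.48 ± 0.13 SE, n = 3 per group, edgeR quasi-likelihood test, adjusted p = 0.9999). The unadjusted p was 0.00593. Without WT replicate 1 the log2 fold change was -0.59. Counts per gene do not tell the Cre allele from the WT allele, so the share of each allele in this RNA is not known.

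Isl2, the closest relative of Isl1, held 182, 201 and 173 cpm in WT and 180, 215 and 171 cpm in Isl1Cre/+, with overlapping groups and a log2 fold change of 0.02 ± 0.11. Meis2 held 107, 104 and 96.0 cpm in WT and 95.5, 102 and 90.8 cpm in Isl1Cre/+, with a log2 fold change of -0.09 ± 0.08. Neither met this criterion for a call. Among the cofactors of LIM proteins, Ldb2 differed by a log2 fold change of 0.08 ± 0.08 and Ldb1 by -0.07 ± 0.17. Of the 22 LIM homeodomain genes and cofactors listed, 12 were tested and Isl1 was the only one called, against 1.40% of all genes tested. The median of the 12 log2 fold changes was -0.01.

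Values of the genes around Isl1 were as follows. Of the 44 other tested genes that start within 10 Mb of Isl1 on chromosome 13, 0 met the criterion, against 1.40% of all genes and 11 of 492 on chromosome 13 (2.24%), so that 0 of 44 is near the background. They had log2 fold changes between -0.29 and 0.24 and a median of 0.02. The lowest unadjusted p among them was 0.0511, for Itga1, an integrin subunit gene 1.35 Mb away, at a log2 fold change of 0.24. The nearest tested gene, Parp8, differed by 0.04 ± 0.08.

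**Figure D1:**
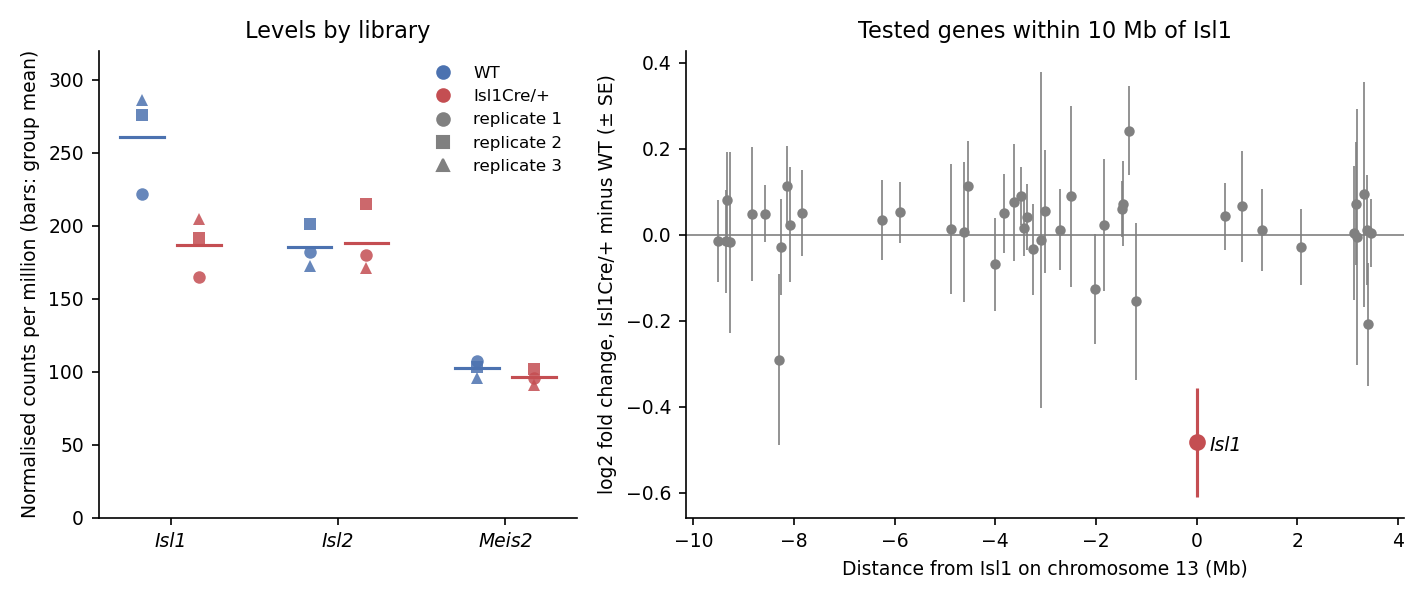
Left, normalised level (cpm) of Isl1, Isl2 and Meis2 in each library of WT (blue) and Isl1Cre/+ (red), with a bar at each group mean and a symbol for each replicate number. Right, log2 fold change ± SE of the 45 tested genes within 10 Mb of Isl1 against the distance of their start from that of Isl1. Isl1 lies at -0.48, below all 44 other genes, which lie between -0.29 and 0.24.

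Across all genes tested, 185 met the criterion, or 1.40% of 13200, and 236 (1.79%) had an unadjusted p under 0.05. No gene had an adjusted p under 0.05 in edgeR's quasi-likelihood test, and DESeq2's Wald test gave 1, the Y-linked gene Kdm5d. Calls were mostly falls, with 151 genes lower (1.14%) and 34 higher (0.258%) in Isl1Cre/+, while the median log2 fold change of all genes was -0.00. Falls were also larger. Of the 151 falls, 87 exceeded 1 on the log2 scale, against 0 of the 34 rises, whose largest was 0.58, for the noncoding RNA D130017N08Rik. The genes called lower were less abundant, with a median of 5.52 cpm over the 6 libraries against 25.1 cpm for those called higher. In 103 of the 185 calls the libraries of the genotypes did not overlap, 72 of them falls and 31 rises. Without regard to the test, libraries did not overlap in 465 genes that were higher (3.52%) and 338 that were lower (2.56%) in Isl1Cre/+. Of the 151 falls, 53 were of genes that reached 100 counts in a WT library but in no Isl1Cre/+ library, as did 219 of all genes tested, and these were tested through the group in which they were higher or through the mutant. Without WT replicate 1 the number of calls was 340, and without Isl1Cre/+ replicate 3 it was 102. Falls numbered 280 without WT replicate 1, 233 without WT replicate 2 and 75 without Isl1Cre/+ replicate 3, and rises numbered 60 and 93 without WT replicates 1 and 3 and 20 and 56 without Isl1Cre/+ replicates 1 and 2.

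Among genes above the count minimum, those of the sensory neurons were called at a share near that of all genes. The 7 lists of neuronal genes (LIM homeodomain genes and cofactors, sensory transcription factors, early neurogenesis factors, neurotrophin and GDNF family receptors, nociceptor genes, mechanoreceptor and proprioceptor genes and pan-neuronal genes) held 133 tested genes, of which 2 met the criterion, Isl1 and Spp1, where 1.40% of all genes tested did. For 115 of these 133 genes the 95% interval of the fold change lay within 1.5-fold in either direction, so a larger change lay outside the interval for these genes. The median standard error of their log2 fold changes was 0.11. In fits without single libraries between 1 and 4 of these genes were called. With no filter on low counts, 10 of 156 members of these lists met the criterion, against 2.60% of 32526 genes, of which Lhx1, Lhx5, Lmx1b, Neurod2, Neurod6, St18 and Sst were below the count minimum, all lower in Isl1Cre/+, and the others were Isl1, Spp1 and Tac1.

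Among the sensory transcription factors, 0 of 27 were called, and the median log2 fold change was -0.04. Klf7, Ebf1 and Prdm12, the most abundant of them, differed by -0.00, -0.03 and 0.01 on the log2 scale. Pou4f1, which acts with Isl1 in sensory neurons, held 262, 262 and 247 cpm in WT and 235, 259 and 262 cpm in Isl1Cre/+. The groups overlapped, at a log2 fold change of -0.03 ± 0.08. Runx1, a factor of nociceptors, differed by 0.11 ± 0.22, and Runx3, a factor of proprioceptors, by -0.13 ± 0.16.

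The list of early neurogenesis factors also holds genes of wider use, such as Notch1, so it does not measure the program that Isl1 shuts off. Of its members, 13 of 21 were tested and 0 were called, where 1.40% of all genes tested were. Their median log2 fold change was -0.10, with 11 of the 13 below 0. Sox4 and Myt1 differed by -0.12 ± 0.13 and -0.13 ± 0.10, and the receptor Notch1 by 0.17 ± 0.09. Neurod1, a proneural factor, held between 2.86 and 3.79 cpm in all 6 libraries. Among the members below the count minimum, St18 had 13, 12 and 14 counts in WT and 2, 3 and 5 in Isl1Cre/+, Neurod6 had 8, 7 and 9 against 3, 4 and 2, and Neurod2 had 7, 5 and 3 against 0, 1 and 0. These 3, chosen with their values in view, were the members without overlap between genotypes among 8 below the minimum, where 4.79% of all 19326 genes below the minimum were lower without overlap.

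No receptor for neurotrophins or GDNF family ligands was called, of 10 tested. Ngfr and Ret differed by -0.07 ± 0.15 and -0.03 ± 0.08 on the log2 scale, and the list had a median of 0.03. Ntrk2 and Ntrk3, the receptors of touch and proprioceptive neurons, differed by 0.03 ± 0.09 and -0.08 ± 0.11.

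Of 27 tested nociceptor genes, 0 were called, where 1.40% of all genes tested were. The median log2 fold change of the 27 was 0.02 (range -0.28 to 0.35). Prph, a neurofilament-type protein of small neurons, and the sodium channels Scn10a and Scn9a differed by -0.09, 0.05 and -0.05. Tac1, the precursor of substance P, had the highest value, 0.35 ± 0.18, with 99.1, 135 and 134 cpm in WT and 142, 130 and 196 cpm in Isl1Cre/+. The groups overlapped. Calca, the precursor of CGRP, differed by 0.04 ± 0.11.

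In the list of mechanoreceptor and proprioceptor genes, 1 of 30 was called, against 1.40% of all genes tested, and the median was -0.04. The called gene was Spp1, osteopontin, a secreted matrix protein which is made by proprioceptors and also by bone and macrophages. It held 23.3, 15.1 and 39.9 cpm in WT and 8.88, 19.1 and 11.1 cpm in Isl1Cre/+, at a log2 fold change of -1.01 ± 0.40, and the groups overlapped. The neurofilament genes Nefl, Nefm and Nefh differed by -0.15, -0.28 and -0.22 with standard errors of 0.20, 0.30 and 0.18. Their highest value was in WT replicate 1, where Nefm reached 8348 cpm against 3614 to 4746 cpm in the other 5 libraries. Pvalb, of proprioceptors, held between 44.4 and 57.9 cpm in all 6 libraries. Of the 25 pan-neuronal genes 0 were called, with a median of -0.03, and Stmn2, Uchl1 and Mapt differed by 0.03, 0.06 and 0.01.

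Lists of ganglion glia held 33 tested genes, too few to read a count of 0 calls against the 1.40% of all genes. Of 21 tested Schwann cell genes 0 were called, with a median log2 fold change of 0.11, and of 13 satellite glia genes 0, with a median of -0.05. Gap43 and Pmp22 differed by -0.07 and 0.10 with standard errors of 0.19 and 0.12. Apoe and Fabp7, both made by satellite glia, differed by -0.13 and -0.12. Fibroblast and meningeal genes (0 of 21 called, median -0.05, with Col1a1, Col3a1 and Col1a2 at -0.15, 0.10 and 0.06), genes of dividing cells (0 of 22, median -0.05, with Mki67, Top2a and Mcm6 at -0.05, 0.01 and -0.05) and immediate early genes (0 of 17, median 0.06, with Jun, Klf6 and Jund at -0.07, 0.05 and -0.07) had 0 calls. A p above the threshold does not show that these genes were equal in both genotypes.

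**Figure D2:**
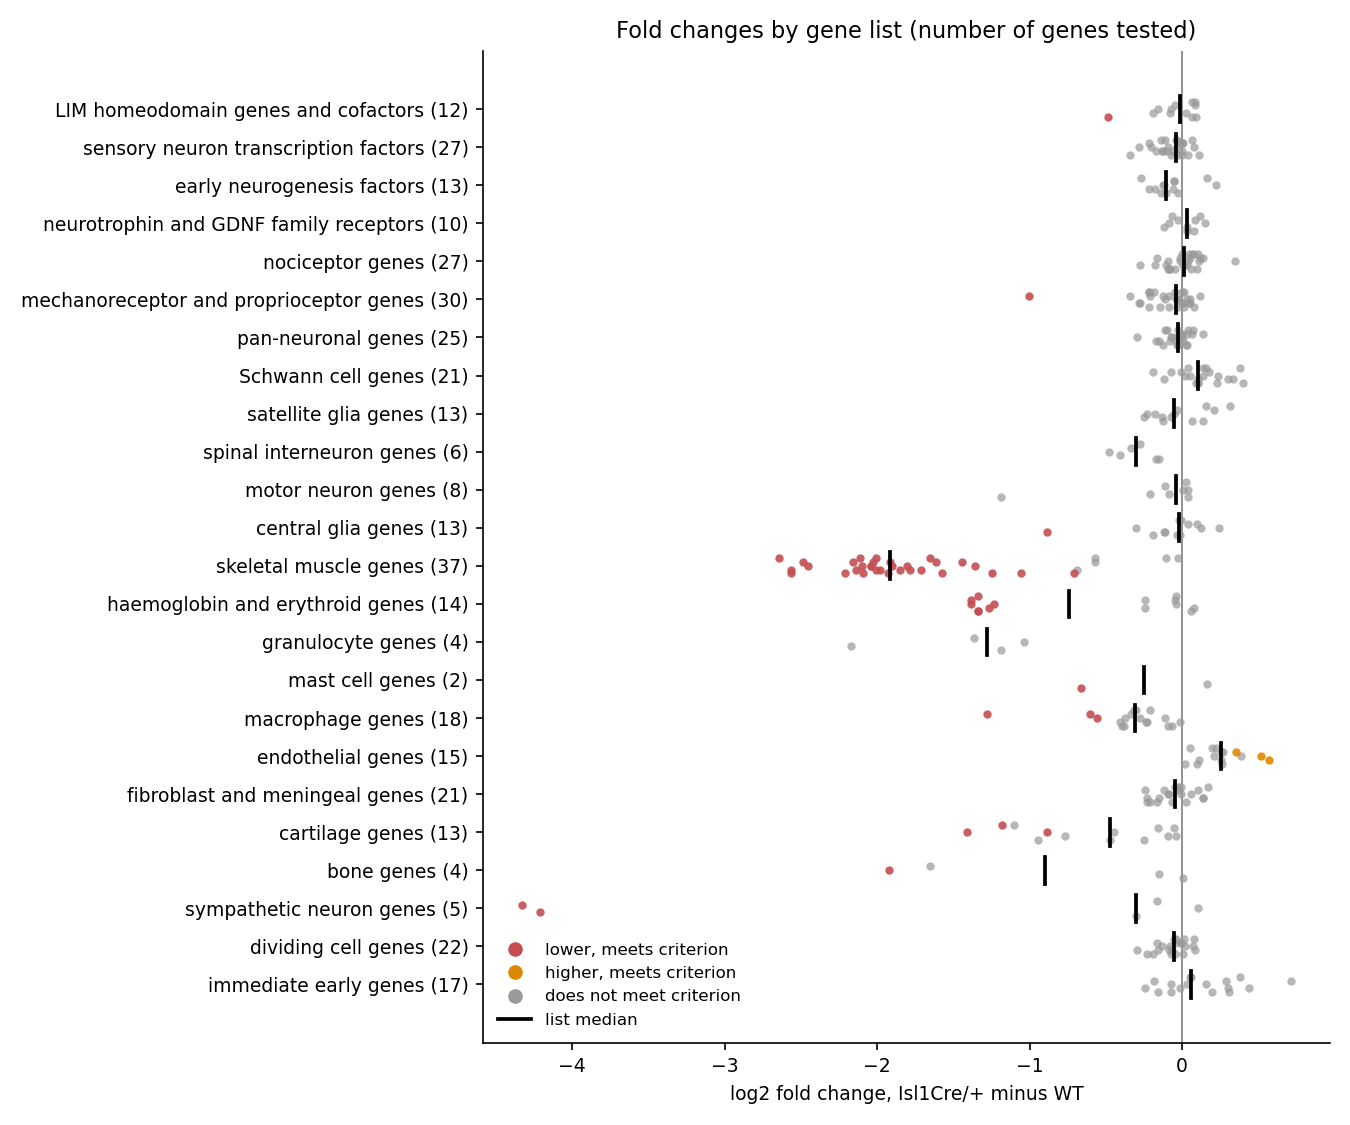
log2 fold change (Isl1Cre/+ minus WT) of each tested gene of 24 lists, with the number of genes tested in brackets. Red points met the criterion as lower, orange points as higher and grey points did not meet it, and black bars mark list medians. Lists of sensory neurons and ganglion glia have medians near 0, while those of spinal interneurons and sympathetic neurons are at -0.30 and -0.30. The 37 muscle genes have a median of -1.91, and the 15 endothelial genes lie between 0.02 and 0.57.

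The largest group of falls was of skeletal muscle. Of 37 tested genes of this list, 32 were called lower in Isl1Cre/+ and 0 called in the other direction, where 1.14% of all genes were called lower. This list, like the others, was chosen with earlier results of these data known, so these shares describe it and are not a test. The median over the 37 was -1.91 on the log2 scale, all 37 of them below 0, against -0.00 over all genes tested, and it was -1.04 without WT replicate 3. The 32 genes encode sarcomeric actins and myosins (Acta1, Actc1, Myh3, Myh7, Myh8, Myl1, Myl4, Mylpf, Mybpc1), thin filament regulators (Tnnc1, Tnnc2, Tnni2, Tnnt1, Tnnt3, Tpm2), scaffolds of the sarcomere (Ttn, Neb, Actn2, Des, Ldb3, Xirp1, Klhl41), proteins of calcium release and uptake (Ryr1, Cacna1s, Atp2a1, Casq1, Casq2, Trdn), enzymes of energy supply (Ckm, Ckmt2, Cox6a2) and the fusion protein of myoblasts Mymk. Of the 32, 6 reached 100 counts in WT but in no Isl1Cre/+ library, and among genes with at least 100 counts in all 6 libraries 16 muscle genes were called. The log2 fold changes of the 32 ran from -2.64 for Ckmt2 to -0.71 for Ryr1. Of the other tested members, Smyd1, Tnni1 and Actn3 were at -0.69, -0.57 and -0.57, and Mef2c and Nebl, genes that are used outside muscle too, were at -0.11 and -0.03. Exons of another gene on the opposite strand cover 74.0% of Tnnc2, so its counts are uncertain.

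Acta1, the skeletal alpha-actin whose promoter with its CArG box is shown above, held 155, 50.3 and 367 cpm in WT and 41.1, 82.8 and 26.3 cpm in Isl1Cre/+. The groups overlapped, since WT replicate 2 was below Isl1Cre/+ replicate 2, and the log2 fold change was -1.93 ± 0.71. Myh3, the embryonic myosin heavy chain, held 34.6, 10.7 and 98.8 cpm in WT and 13.2, 4.51 and 6.62 cpm in Isl1Cre/+, a log2 fold change of -2.56 ± 0.78. Mylpf held 79.0, 19.4 and 127 cpm in WT and 16.0, 32.9 and 7.41 cpm in Isl1Cre/+, a log2 fold change of -2.01 ± 0.72. All 3 genes were highest in WT replicate 3 and had their lowest WT value in replicate 2.

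This order of libraries ran through the list. Of the 32 genes called, 29 were highest in WT replicate 3, and in 31 the lowest WT library was replicate 2. WT replicates 1 and 3 lay above every Isl1Cre/+ library in all 32. The groups were fully separate in 5 of the 32, where 2.56% of all genes were lower without overlap, Neb, Ldb3, Mymk, Cacna1s and Ryr1. Neb, the giant protein that lines thin filaments, held 11.4, 5.64 and 31.7 cpm in WT and 4.80, 4.44 and 3.69 cpm in Isl1Cre/+, a log2 fold change of -1.91 ± 0.58. Ryr1, the calcium release channel of muscle, held 9.57, 5.79 and 8.81 cpm in WT and 5.34, 4.80 and 4.62 cpm in Isl1Cre/+, a log2 fold change of -0.71 ± 0.20.

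Summed over all 45 genes of the list, muscle RNA came to 1095, 440 and 1911 cpm in the WT libraries and to 408, 503 and 303 cpm in the Isl1Cre/+ libraries, a mean of 1148 ± 737 against 404 ± 100 cpm (SD, n = 3 per group). The number of muscle genes called rested on single libraries. It was 10 without WT replicate 3, 9 without Isl1Cre/+ replicate 3, 19 and 20 without Isl1Cre/+ replicates 1 and 2, and 32 and 35 without WT replicates 1 and 2. With limma voom it was 11, and with sample quality weights 2. In these bulk libraries, fewer muscle cells and less RNA per cell cannot be told apart.

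Further genes of muscle stood outside the list among the largest falls whose libraries did not overlap. Sypl2, of the triad junction, had 2.10, 0.643 and 5.14 cpm in WT and 0.442, 0.358 and 0.465 cpm in Isl1Cre/+, at a log2 fold change of -2.63 ± 0.74. Smpx, Klhl31, Mypn and Myom2, which belong to the sarcomere or its attachments, fell by 2.34, 2.34, 1.69 and 1.45 on the log2 scale. Car3, the carbonic anhydrase of slow muscle and fat, named after its value was seen, held 41.0, 27.3 and 76.6 cpm in WT and 26.6, 20.5 and 21.4 cpm in Isl1Cre/+, at -1.08 ± 0.35.

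Red blood cell genes formed the next group. Of 14 tested haemoglobin and erythroid genes, 7 were called lower, against 1.14% of all genes, and 0 higher. Of the 7, 2 reached 100 counts in no Isl1Cre/+ library, though in WT and mutant libraries. The median log2 fold change was -0.74, and the 7 lay between -1.38 and -1.23. They included the alpha globins Hba-a1 and Hba-a2, the beta globins Hbb-bs and Hbb-bt, Alas2, which starts haem synthesis in erythroid cells, and the anion exchanger Slc4a1. Hbb-bs held 1018, 473 and 824 cpm in WT and 224, 506 and 183 cpm in Isl1Cre/+, at a log2 fold change of -1.34 ± 0.43. Hba-a1 held 428, 170 and 252 cpm in WT and 84.5, 181 and 60.4 cpm in Isl1Cre/+, at -1.38 ± 0.47. For all 7 genes the groups overlapped, and for both of these genes Isl1Cre/+ replicate 2 lay above WT replicate 2. Add2, a member of the list that neurons use too, held between 458 and 521 cpm in all 6 libraries.

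Hba-a2 and Hbb-bt moved with their partners, at -1.38 ± 0.45 and -1.34 ± 0.47. The copies cannot be read as separate measurements. Of the 84-base windows of the Hba-a1 transcript, 60.2% occur unchanged in Hba-a2, and of those of Hbb-bs 63.7% occur in Hbb-bt. This is the sequenced length, and aligned reads were shorter once the molecular identifier had been removed, so the shared part is at least as large for them, and uniquely mapped reads came from the rest of each gene. Summed over the 29 genes of the list that the table holds, the WT libraries held 3021, 1778 and 2367 cpm and the Isl1Cre/+ libraries 1296, 1912 and 1217 cpm. The libraries took the same order in the erythroid and the muscle sum except for the 2 highest, WT replicates 1 and 3, which changed places. Without WT replicate 1, 3 erythroid genes were called, without Isl1Cre/+ replicate 3, 2, and without Isl1Cre/+ replicate 1, 0.

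Among genes of immune cells the falls were fewer. All 18 tested macrophage genes were below 0, as were 6693 of all 13200, with a median log2 fold change of -0.31, and 3 were called lower, against 1.14% of all genes. Cd163, the haemoglobin scavenger receptor, held 3.64, 2.50 and 3.91 cpm in WT and 1.63, 1.54 and 0.966 cpm in Isl1Cre/+, a log2 fold change of -1.28 ± 0.28 with separate groups, but it reached 100 counts in no Isl1Cre/+ library and was tested through 1 WT and 1 mutant library. Lyve1, a hyaluronan receptor of macrophages along vessels and of lymphatic endothelium, fell by 0.55 ± 0.14, again with separate groups, and F13a1, a coagulation factor chain, fell by 0.61 ± 0.26 with overlapping groups. The abundant members Mrc1 and Csf1r, which mark macrophages in general, were at -0.21 ± 0.18 and -0.07 ± 0.15. The summed level of the list was 223, 188 and 219 cpm in WT and 193, 172 and 140 cpm in Isl1Cre/+, with overlapping groups.

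Of the 2 tested mast cell genes, 1 was called lower, against 1.14% of all genes. The protease Cpa3, tested only through a mutant library with at least 100 counts, was at 2.83, 2.25 and 3.01 cpm in WT against 1.91, 1.90 and 1.29 cpm in Isl1Cre/+ (log2 fold change -0.67 ± 0.24, groups separate), while Kit, which sensory neurons also use, was at 0.16 ± 0.12. The 4 tested granulocyte genes had a median of -1.28 with 0 calls (-0.26 without WT replicate 1), and the most abundant of them, Mmp9, S100a9 and S100a8, were at -1.19, -1.36 and -1.04 with standard errors of 0.85, 0.76 and 0.76. Isg20 and Rag1, an interferon-induced exonuclease and the recombinase of lymphocytes, were among the 12 largest falls with separate libraries, at -1.51 ± 0.39 and -1.49 ± 0.42.

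Of 13 tested cartilage genes 3 were called lower, against 1.14% of all genes, and 0 higher. All 13 were below 0, as were 6693 of all 13200, with a median of -0.47. With 1 library left out the median ran from -0.80 to -0.32, and it was -0.16 with at least 100 counts in every library. Sox9, Col11a2 and Col10a1 met the criterion at -0.88 ± 0.21, -1.18 ± 0.43 and -1.41 ± 0.57. Sox9, a transcription factor of cartilage that glial precursors use as well, held 3.79, 3.57 and 4.51 cpm in WT and 2.52, 1.72 and 2.18 cpm in Isl1Cre/+, without overlap, and it too reached 100 counts in no Isl1Cre/+ library, though in WT and mutant libraries. The abundant Col11a1, Col2a1 and Cnmd were at -0.06, -0.47 and -0.04. Of 4 tested bone genes 1 was called lower, against 1.14% of all genes. This was Ibsp, a sialoprotein of mineralising bone, with 23.5, 8.32 and 22.3 cpm in WT and 2.79, 9.59 and 1.93 cpm in Isl1Cre/+ (log2 fold change -1.92 ± 0.63). The groups overlapped, and Alpl, another gene of this list, was at 0.00 ± 0.07.

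**Figure D3:**
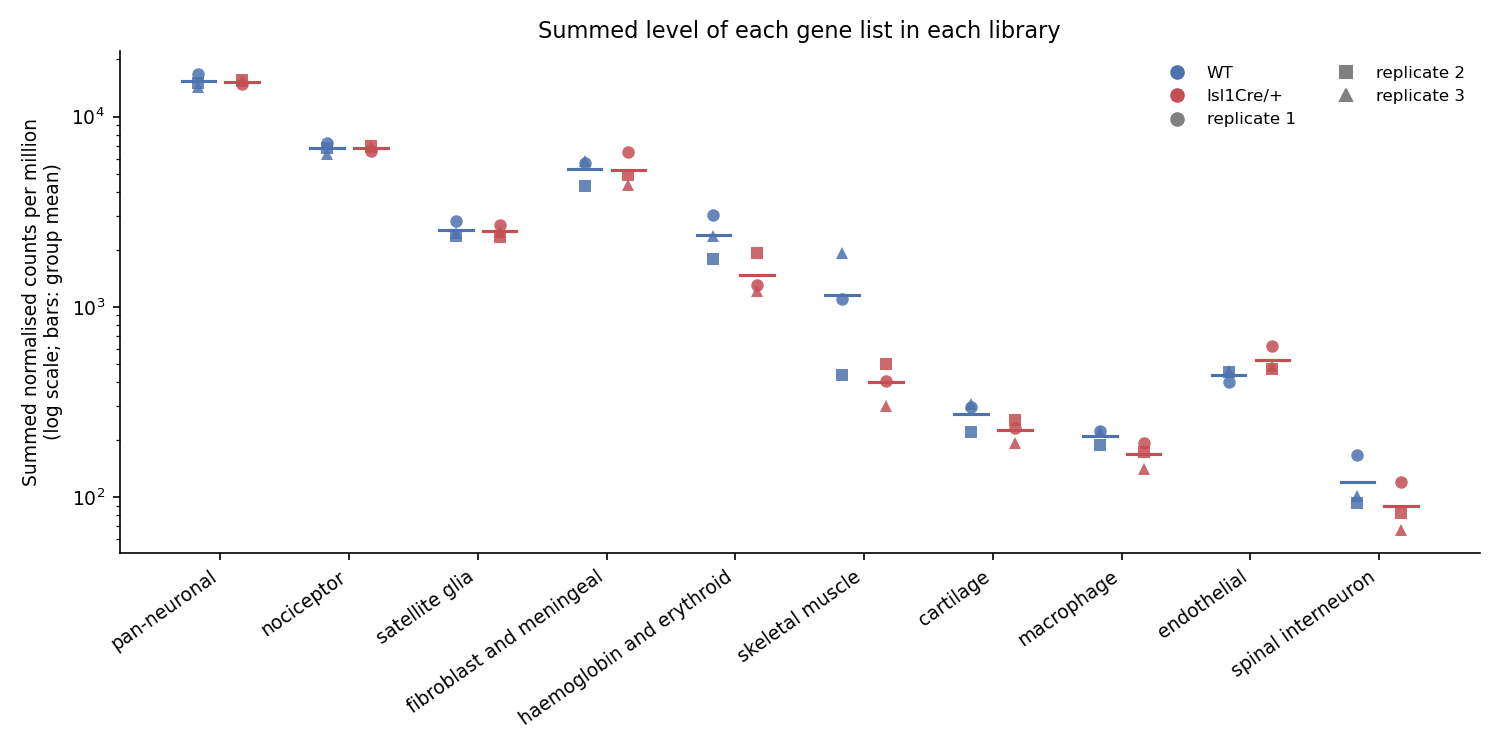
Sum of the normalised cpm of all genes of 10 lists in each library, on a log scale, for WT (blue) and Isl1Cre/+ (red), with a bar at each group mean and a symbol for each replicate number. Neuronal, glial and fibroblast sums overlap between genotypes, muscle RNA spans 303 to 1911 cpm with 2 WT libraries above all others, and all 3 endothelial sums of Isl1Cre/+ lie above those of WT.

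Genes of spinal cord interneurons were mostly below the count minimum. Of the 30 listed, 6 were tested and 0 met the criterion, all 6 were below 0, with a median of -0.30 on the log2 scale. The median rested on WT replicate 1, without which it was -0.0011, and in libraries without Y-linked counts it was -0.03. Zic1, Penk and Zic2 were the most abundant, at -0.34 ± 0.28, -0.41 ± 0.35 and -0.27 ± 0.40, and their highest library was WT replicate 1. The other 24 were all lower on average in Isl1Cre/+, where 58.9% of the 19326 genes below the minimum with at least 1 count were lower. The libraries did not overlap in 11 of the 24, against 4.79% of those 19326 genes and 7.06% of the 4238 among them with at least 50 counts over the 6 libraries. In Lhx1 the separation came only from library size, since WT replicate 2 and Isl1Cre/+ replicate 1 both held 2 counts.

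The 11 genes included those that make, load and retrieve inhibitory transmitters. They are named here after their values were seen, and their values are counts as deposited. Slc32a1, the vesicular transporter of GABA and glycine, had 25, 19 and 13 counts in WT and 0, 0 and 0 in Isl1Cre/+, at least 19.0-fold lower against a floor of 3 counts over the Isl1Cre/+ group. Slc6a5, the glycine transporter of inhibitory neurons, had 23, 31 and 27 counts in WT and 3, 4 and 1 in Isl1Cre/+. The GABA-synthesising enzyme Gad2 had 24, 16 and 15 counts in WT and 0, 3 and 2 in Isl1Cre/+. In all 3 genes every WT library lay above every Isl1Cre/+ library.

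Gad1, the other such enzyme, had 67, 61 and 51 counts in WT and 15, 32 and 34 in Isl1Cre/+. Outside this list, also named after their values were seen, were Sst and Lamp5. Sst, somatostatin, a member of the nociceptor list that dorsal horn interneurons use too, had 58, 25 and 19 counts in WT and 2, 2 and 0 in Isl1Cre/+. Lamp5, a membrane protein of dorsal horn neurons that is in none of the lists, had 49, 35 and 34 counts in WT and 7, 3 and 2 in Isl1Cre/+. With no filter on low counts, 32526 genes were tested, of which 674 (2.07%) met the criterion as lower in Isl1Cre/+ and 1264 (3.89%) were lower without overlap between libraries, and Slc32a1, Slc6a5, Sst and Lamp5 were the 4 genes (0.0123%) with an adjusted p under 0.05 in edgeR (0.0273, 0.0273, 0.0459 and 0.0273).

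The factors that specify spinal interneurons were at a few counts. Pax2 had 9, 5 and 12 counts in WT and 0, 2 and 0 in Isl1Cre/+, and Lhx5 had 13, 1 and 2 counts in WT and 0 in each Isl1Cre/+ library. Markers of motor neurons were near 0 in both genotypes, with 1 count of Mnx1 over the 6 libraries and 6 counts of Chat in each group, and of the 8 tested genes of that list, several of which sensory neurons use too, 0 were called (median -0.04), with Prph, Calca and Isl2 the most abundant. Olig1 and Olig2, of the oligodendrocyte lineage, had 62, 36 and 12 and 40, 16 and 5 counts in WT and 22, 1 and 2 and 10, 0 and 0 counts in Isl1Cre/+, with overlap. Of 13 tested central glia genes, 1 was called lower, against 1.14% of all genes, the Sox9 described above, and Tnc, Opcml and Gja1, the most abundant, were at 0.24, -0.01 and -0.12. The part of spinal cord tissue in these counts was not tested.

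Of 5 tested genes of sympathetic neurons, 2 were called lower in Isl1Cre/+, against 1.14% of all genes, and 0 higher. The median was -0.30 (-0.43 to -0.16 with 1 library left out), and both called genes were highest in WT replicate 2. These 2 genes reached 100 counts in that library alone of the 9, so they were tested only through the group in which they were high, and the count is no support for a difference. Dbh, which makes noradrenaline, held 0.368, 4.93 and 1.47 cpm in WT and 0, 0.358 and 0 cpm in Isl1Cre/+, at a log2 fold change of -4.21 ± 1.29. Its groups were separate only through the scaling of the libraries, since WT replicate 1 and Isl1Cre/+ replicate 2 held the same count. Slc6a2, the noradrenaline transporter, held 0.184, 5.93 and 1.22 cpm in WT and 0.0340, 0.286 and 0.0358 cpm in Isl1Cre/+, at -4.33 ± 1.36, with overlap. The factor Hand2, below the count minimum, had 16, 64 and 18 counts in WT and 3, 4 and 2 counts in Isl1Cre/+. Of 8 listed genes below the minimum, 6 were lower without overlap. The share was 4.79% of the 19326 genes below the minimum and 7.06% of the 4238 among them with at least 50 counts over the 6 libraries. Th, Chrna3 and Slc18a2, which DRG neurons use too, were at -0.16 ± 0.12, -0.30 ± 0.15 and 0.11 ± 0.24. Both the sensory and the sympathetic neurons use Isl1, and a change in sympathetic neurons cannot be told apart here from a different amount of sympathetic tissue.

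**Figure D4:**
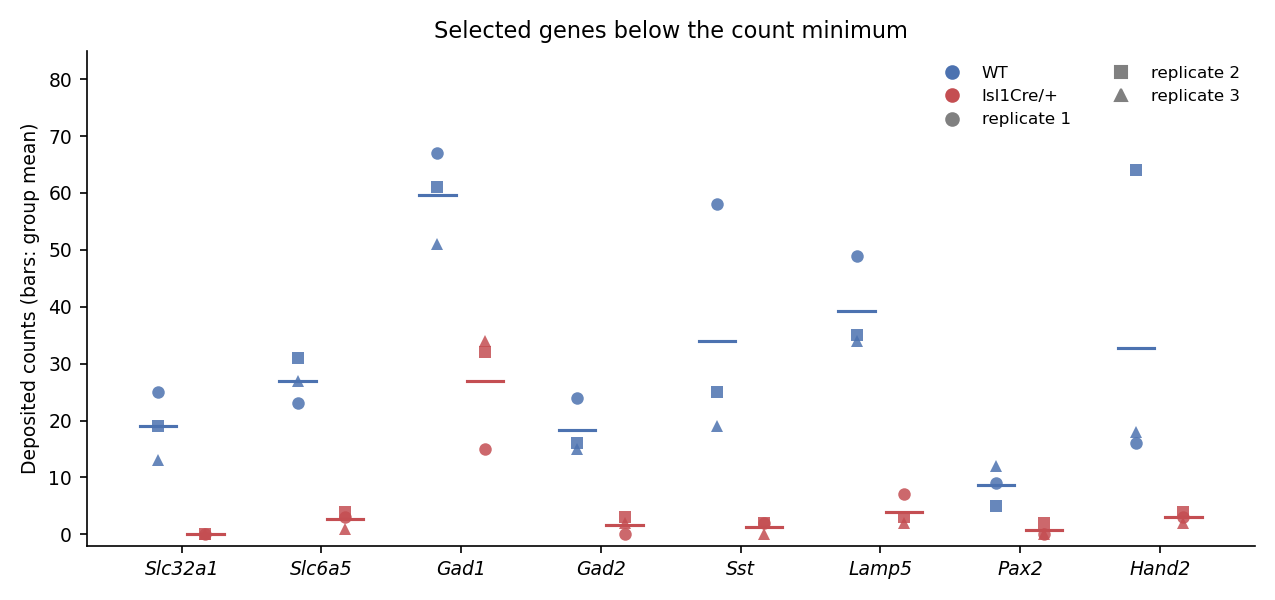
Deposited counts of 5 genes of the spinal interneuron list (Slc32a1, Slc6a5, Gad1, Gad2, Pax2), of Sst (nociceptor list) and Lamp5 (no list), and of Hand2 (sympathetic list) in each library of WT (blue) and Isl1Cre/+ (red), with a bar at each group mean and a symbol for each replicate number. For all 8 genes the WT libraries lie above the Isl1Cre/+ libraries, and Slc32a1 is at 0 counts in all 3 Isl1Cre/+ libraries.

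Endothelial genes were the only list of the 26 with members called higher. All 15 tested members were above 0, with a median log2 fold change of 0.26, and Kdr, Flt1 and Pecam1 met the criterion as higher, against 0.258% of all genes, while 0 were called lower. Flt1, a VEGF receptor that also acts as a decoy, held 26.9, 35.4 and 32.8 cpm in WT and 55.3, 40.0 and 45.8 cpm in Isl1Cre/+, at 0.57 ± 0.15. Kdr, the main VEGF receptor of endothelium, held 36.0, 60.1 and 57.8 cpm in WT and 84.04, 65.1 and 71.1 cpm in Isl1Cre/+, at 0.52 ± 0.20. Pecam1, an adhesion protein of endothelial junctions, rose by 0.35 ± 0.14. In all 3 genes the groups did not overlap, as in 3.52% of all genes in this direction, and WT replicate 1 was the lowest library. Cdh5, the most abundant of the list, was at 0.10 ± 0.17. With Y-linked counts as a covariate 0 endothelial genes were called, and 1 was called without Isl1Cre/+ replicate 1 or 3.

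Among other rises with separate libraries, Notch3, the Notch receptor of mural cells of vessels, named after its value was seen, held 23.6, 22.9 and 23.1 cpm in WT and 30.6, 28.2 and 31.3 cpm in Isl1Cre/+, at 0.37 ± 0.08. Lipg, endothelial lipase, held 14.9, 16.4 and 15.5 cpm in WT and 21.3, 19.3 and 20.1 cpm in Isl1Cre/+, at 0.38 ± 0.08. Tfrc, the transferrin receptor, rose by 0.41 ± 0.14. Ak4, a mitochondrial adenylate kinase, Lpcat2, an enzyme of phospholipid remodelling, Gpr19, an orphan receptor, and Mfsd8, a lysosomal transporter, rose by 0.49 ± 0.12, 0.57 ± 0.17, 0.38 ± 0.13 and 0.41 ± 0.17. AU021092 rose by 0.39 ± 0.17. Pcdhga4 and Pcdhga6, gamma protocadherins that neurons use for cell recognition, rose by 0.52 ± 0.12 and 0.49 ± 0.13. Their transcripts share 43.9% of 84-base windows, so reads of the shared part cannot be assigned to either.

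Genes linked to sex were called as well. Ddx3y, Eif2s3y, Kdm5d and Uty of the Y chromosome met the criterion as lower in Isl1Cre/+, with 91.8, 107 and 0 cpm of Ddx3y in WT and 0 cpm in all 3 Isl1Cre/+ libraries. Xist held 0.294, 0.571 and 345 cpm in WT and 315, 384 and 350 cpm in Isl1Cre/+ and did not meet the criterion. Eif2s3x, which escapes X inactivation, held 23.7, 26.9 and 40.4 cpm in WT and 41.0, 42.9 and 43.4 cpm in Isl1Cre/+, a rise of 0.48 ± 0.19. Its WT library without Y-linked counts, replicate 3, lay closest to the Isl1Cre/+ libraries, and the same held for Kdm5c, another gene of this kind, named after its value was seen, at 68.8, 64.5 and 85.4 against 96.5, 87.2 and 90.0 cpm. With Y-linked counts as a covariate, 168 genes met the criterion, 21 higher and 147 lower, and Isl1 was at -0.61.

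Of the calls, 96 of the 151 falls and 31 of the 34 rises were of genes in none of the lists. The following falls among them were named after their values were seen. Nova1, a neuronal splicing factor, had the lowest p of all genes (0.00156 unadjusted, adjusted p = 0.9999 in edgeR) and held 16.4, 18.4 and 16.4 cpm in WT and 12.5, 12.2 and 13.1 cpm in Isl1Cre/+, at -0.44 ± 0.09. Slc12a5, the potassium chloride cotransporter of mature central neurons, held 5.85, 4.36 and 4.12 cpm in WT and 3.71, 3.26 and 2.76 cpm in Isl1Cre/+, at -0.56 ± 0.20. The homeobox genes Hoxc8 and Hoxb7, which mark axial level, fell by 0.37 ± 0.15 and 0.27 ± 0.10, and in both the groups did not overlap. Tuba1c, an alpha-tubulin, held 36.0, 70.7 and 70.9 cpm in WT and 23.3, 29.3 and 35.6 cpm in Isl1Cre/+, at -1.01 ± 0.27. Tuba1c has close relatives among the tubulin genes, so its counts may depend on how shared reads were treated.

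The mutant libraries carry the same Cre allele, and their values are set here beside those above. The comparisons share libraries, so they are not independent. Isl1 was lower in the mutant than in WT by a log2 fold change of -0.48 and differed from Isl1Cre/+ by 0.01. The muscle list, in contrast, had a median log2 fold change of 0.77 in the mutant against WT, and its summed level was 437, 4104 and 1284 cpm scaled by library size alone in the 3 mutant libraries, where the TMM-normalised values of Isl1Cre/+ were 303 to 503 cpm. Hbb-bs was at 0.73 in the mutant against WT and at -1.34 in Isl1Cre/+ against WT, and Kdr and Flt1 were at 0.14 and 0.39 against 0.52 and 0.57. Slc32a1 had 2, 5 and 13 counts and Slc6a5 4, 10 and 16 counts in the mutant, between those of the other genotypes on average. Nova1 and Slc12a5 were below WT in both, at -0.36 and -0.69 in the mutant. In the mutant against WT, 42 genes met the criterion (0.318%).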

How the data were processed

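RNA of E18.5 DRG from 3 WT and 3 Isl1Cre/+ samples was examined. Per the study's methods, the authors prepared poly(A) libraries with unique molecular identifiers, sequenced single ends, took the identifiers off the reads, aligned these to mm10 with STAR 2.7.10, removed PCR duplicates by identifier, counted uniquely mapped reads per gene with HTSeq 0.6 (versions from the submitters' processing notes), and deposited these raw counts in 1 table. The annotation release and the strand option are not given in the sources used here, so reads of genes that overlap on opposite strands may not be separated. Columns of the authors' own limma voom comparisons (log2 fold changes, mean expression, test statistics and p-values) were not used.

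Groups followed the labels. Counts were normalised by TMM and tested with edgeR 4.0.16 (quasi-likelihood F-test, R 4.3.3) over the 6 libraries, for genes with 100 counts or more in 1 library, with Benjamini-Hochberg adjustment over all 13200 genes. A gene met the criterion at a fold change of 1.2 or more with an unadjusted p under 0.05. Intervals of fold changes are 95% intervals from the fit. Genes below the count minimum are given as counts, which cover counting error only. An exact permutation test of 3 against 3 libraries cannot go below p = 0.1 and was not used. Alternatives were limma 3.58.1 voom, DESeq2 1.42.0, other scalings, filters, fold changes and samples in the fit, a replicate block, Y-linked counts as a covariate and each library left out.

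The compared libraries and the 26 gene lists were chosen with earlier results of these data known. Named genes are Isl1, Isl2 and Meis2, the 12 largest changes in each direction among genes that met the criterion without overlap between groups, the 3 most abundant tested members and every called member of each list, and the sex-linked genes. Other genes named are said to have been chosen after their values were seen, or serve as background for a list. Some genes that this rule names are not reported here. Promoter sequences were taken from RefSeq.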

Additional observations from a re-analysis of the deposited data

How the results depend on the processing

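Isl1 met the criterion in all 18 alternative settings, with log2 fold changes between -0.62 and -0.40. The numbers of calls were less stable. The 185 calls (34 higher, 151 lower) became 108 with at least 100 counts in every library (76 lower), 361 in limma voom with sample quality weights (97 higher, 264 lower), 845 with no filter on low counts (171 higher, 674 lower) and 105 at a fold change of at least 1.5 (0 higher). With no fold change required 72 were higher, with Y-linked counts as a covariate 21 were higher, and with all 3 groups in 1 fit 99 were lower. Among libraries without Y-linked counts only, an alternative chosen after seeing the data that leaves 1 WT library, assumed to vary like the others, 405 genes were called (76 higher, 329 lower). In that fit 19 genes had an adjusted p under 0.05, 10 of them muscle genes of the list, against 0 as reported, 1 in the DESeq2 Wald test and 4 with no filter.

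Muscle genes lower (32 as reported) numbered 9 with all 3 groups in 1 fit, 16 with at least 100 counts in every library, 11 in limma voom and 2 with quality weights. Erythroid genes lower (7) numbered 2 with the Y-linked covariate and 1 with quality weights, and macrophage genes lower (3) numbered 1 with all 3 groups in 1 fit. Endothelial genes higher (3) numbered 0 with the Y-linked covariate. Neuronal genes called (2) numbered 10 with no filter, where more members were tested. Kdm5d changed sign, to 2.65 with the covariate and 2.66 in libraries without Y-linked counts, where it holds at most 1 count.

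With 1 library left out, calls ranged from 102 to 340, rises from 20 to 93, falls from 75 to 280, genes with an adjusted p under 0.05 from 0 to 5 (5 without WT replicate 3), neuronal calls from 1 to 4, muscle falls from 9 to 35, erythroid falls from 0 to 8, macrophage falls from 2 to 5 (5 without WT replicate 2), and endothelial rises from 1 to 3. The list medians ranged over all settings from -2.75 to -1.004 for muscle, -0.95 to -0.25 for erythroid, -0.39 to -0.20 for macrophage and 0.10 to 0.31 for endothelial genes. The cause of these shifts was not tested.

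Whether replicate numbers pair the samples is not known. The deviations of same-numbered libraries from their group means correlated at 0.39, -0.11 and 0.25. WT replicates 1 and 3 correlated best with the Isl1Cre/+ library of the same number, and WT replicate 2 with Isl1Cre/+ replicate 3 (0.49). Deviations within a group cancel out for each gene, so these values cannot decide the question. With the replicate block 236 genes were called (56 higher, 180 lower) and 4, all Y-linked, had an adjusted p under 0.05. For the 153 single genes named or listed, 344 of 2704 values under the alternatives no longer passed the threshold and 24 newly passed it, and 149 values of genes that were not called changed sign.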
